A study of Homo sapiens with 12 samples.

Results

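To ask which genes of tumor-associated macrophages (TAMs) move when VEGFA is neutralized in a coculture with MMP28-overexpressing pancreatic cancer cells, the 3 anti-VEGFA libraries were compared with the 3 OE-MMP28 libraries, 6 of the 12 libraries sequenced. The sequenced cells are labelled THP-1, a human acute monocytic leukaemia line, and the study differentiated them into TAMs with the phorbol ester PMA. They then shared medium, across a porous membrane, with AsPC-1, a pancreatic cancer line. In the OE-MMP28 group AsPC-1 overexpressed the secreted matrix metalloproteinase MMP28, and in the anti-VEGFA group the same coculture received the VEGFA neutralizing antibody MAB293-SP. Another 2 groups of 3 served for side-by-side values: control TAMs, cocultured with AsPC-1 carrying an empty vector, and TAMs cocultured with OE-MMP28 cells and the IL-8 antibody MAB208-SP. No sequenced group carries the name of a control antibody. Both cell types are single established lines. Nothing in the labels says that the 3 libraries of a group came from separate cultures, so p-values measure only the spread between these libraries.

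VEGFA is a secreted growth factor that acts through the receptor tyrosine kinases FLT1 and KDR, with the neuropilins NRP1 and NRP2 as coreceptors, and is best known for driving blood vessel growth. Monocytes and macrophages carry FLT1 and migrate towards VEGFA, and they also make it. Signals from such receptors run through MAP kinases to immediate early genes, a class of genes including FOS, FOSB, EGR1 and NR4A1 whose transcription starts within minutes of a stimulus and needs no new protein.

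Few genes passed a strict threshold when VEGFA was neutralized. Of 16046 genes tested, 55 (0.343%) passed an adjusted p of 0.05 (quasi-likelihood test in edgeR, Benjamini-Hochberg adjustment), which is the test behind every adjusted p given here. Of these, 50 genes (0.312%) were higher and 5 (0.0312%) were lower with the antibody. The count leaned on single libraries. Without the third OE-MMP28 library 1402 genes passed, without the second 8 and without the first 11. Leaving out anti-VEGFA library 1 gave 11 genes, library 2 gave 84 and library 3 gave 27, and leaving out a control or anti-IL-8 library, none of which is in the comparison itself, gave 26 to 39. DESeq2 called 429 genes, and a fit of the 2 groups alone called 1, IQCN.

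Among protein-coding genes, EDN2, IQCN, SSTR3, B3GNT7, HSPA2, NR4A1, LSMEM1 and ARC rose, while FOS, FOSB and OSR2 were the only ones that fell. At an unadjusted p of 0.05, the threshold in the study's sequencing methods, 3019 genes (18.8%) passed the quasi-likelihood test used here. Of these, 1665 (10.4%) were higher and 1354 (8.44%) lower. Without the second OE-MMP28 library 1805 genes passed. The study reports a count of its own for this comparison, and for its cancer cells it added a fold-change cut. The 3019 genes are thus not the study's count. A set of 16 of the 55 genes also passed in a fit with offsets for transcript GC content and length, an alternative added after values had been seen. The adjusted p with offsets is given beside the main one for most named genes, because the size of a difference moved with the GC content of the gene, as described further on.

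The AP-1 genes FOS and FOSB, the protein-coding genes that fell together, and EDN2 and IQCN, those with the largest rise under the naming rule, are shown with the 250 bases before their start in RefSeq (GRCh38.p14), 5′ to 3′ on the strand of the gene. FOS lies at chr14:75278578-75278827 on the plus strand, FOSB at chr19:45467746-45467995 on the plus strand, EDN2 at chr1:41484684-41484933 on the minus strand and IQCN at chr19:18274453-18274702 on the minus strand. Each position is that of the window printed. The annotation of the deposited files, GENCODE 29, starts FOS, FOSB and IQCN inside these windows. Capitals mark matches on either strand to TGACG (the core of the cAMP response element), TATAAA (the TATA motif) and GGGCGG (a GC box).
FOS: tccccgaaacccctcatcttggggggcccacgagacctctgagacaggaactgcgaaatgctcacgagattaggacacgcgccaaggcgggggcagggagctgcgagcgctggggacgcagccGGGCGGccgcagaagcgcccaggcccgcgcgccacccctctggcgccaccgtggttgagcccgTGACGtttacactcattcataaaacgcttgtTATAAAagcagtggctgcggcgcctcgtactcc
FOSB: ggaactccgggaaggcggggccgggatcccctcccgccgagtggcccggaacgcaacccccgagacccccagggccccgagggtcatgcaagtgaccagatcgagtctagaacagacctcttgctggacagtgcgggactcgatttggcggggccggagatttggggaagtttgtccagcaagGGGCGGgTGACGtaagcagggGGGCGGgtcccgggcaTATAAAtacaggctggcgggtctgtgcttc
EDN2: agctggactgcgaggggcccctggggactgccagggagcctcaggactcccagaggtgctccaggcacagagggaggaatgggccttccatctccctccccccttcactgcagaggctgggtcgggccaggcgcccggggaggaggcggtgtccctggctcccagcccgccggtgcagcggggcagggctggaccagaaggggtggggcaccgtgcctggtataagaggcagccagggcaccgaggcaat
IQCN: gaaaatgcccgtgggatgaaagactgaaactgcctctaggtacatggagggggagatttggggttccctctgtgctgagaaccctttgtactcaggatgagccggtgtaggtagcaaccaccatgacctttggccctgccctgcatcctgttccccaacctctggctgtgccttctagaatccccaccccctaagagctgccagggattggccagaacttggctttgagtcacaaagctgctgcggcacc
In FOS TGACG began 64 bases before the start, TATAAA 33 bases and the GC box 127 bases before it. FOSB had TGACG 60 bases, TATAAA 30 bases and GC boxes 67 and 46 bases before its start, so both AP-1 genes hold TGACG upstream of a TATA motif at a like distance. The full element TGACGTCA, which contains TGACG, and the CArG box bound by serum response factor matched none of the 4 windows. No motif searched matched the windows of EDN2 and IQCN. Bases further upstream were not searched in any of these genes. Of 35116 RefSeq windows of the same length, 21.2% held TGACG, 10.7% TATAAA, 42.6% GGGCGG, 1.65% TGACGTCA and 1.16% a CArG box. GC content was 64.8% in the FOS window, 65.6% in FOSB, 70.8% in EDN2 and 56.0% in IQCN, against a median of 58.0%. A match is a string of letters, not a measured site.

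FOS encodes a subunit of the AP-1 transcription factor and was among the more abundant transcripts here. Its level, in CPM (counts scaled by TMM to equal library totals, the unit of every level below), was 673, 606 and 594 in the OE-MMP28 libraries and 283, 325 and 299 with anti-VEGFA. The groups did not overlap, and the anti-VEGFA level was 0.484-fold that of OE-MMP28 (log2 difference −1.05 ± 0.16 SE, adjusted p = 0.0102). Of all tested genes, 1440 (8.97%) had every anti-VEGFA library below every OE-MMP28 library, and 1461 (9.11%) had every one above. With anti-IL-8 the FOS level was 615, 438 and 360, and in control TAMs it was 673, 821 and 793. All 3 anti-VEGFA libraries were thus below the lowest library of every other group, although the difference from anti-IL-8 did not pass the adjusted threshold (log2 −0.64, adjusted p = 0.10). With GC and length offsets the FOS difference was −1.11 (adjusted p = 0.00628). FOS kept its call in 4 of the 6 fits that left out 1 of the 6 libraries compared, and missed it without the first OE-MMP28 library (adjusted p = 0.068) and without the first anti-VEGFA library (0.058).

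FOSB, another AP-1 subunit of the same family, was at 59.6, 55.4 and 35.8 CPM in OE-MMP28 and at 23.4, 15.8 and 22.2 with anti-VEGFA. Every anti-VEGFA library was lower than every OE-MMP28 library, by −1.30 ± 0.26 on the log2 scale (adjusted p = 0.0384), and the third OE-MMP28 library was well below its 2 neighbours. With offsets the difference was −1.56 (adjusted p = 0.0296), and leaving out single libraries left the call in 1 of 6 fits, the one without the third OE-MMP28 library, with an adjusted p of 0.060 to 0.164 in the others. The gene overlaps ERCC1 on the opposite strand, whose own level differed by 0.10 on the log2 scale (adjusted p = 0.81), and the sources used here do not say whether reads were counted by strand. OSR2, a zinc finger transcription factor of limb and craniofacial development, was scarce, at 7.86, 6.96 and 5.87 CPM in OE-MMP28 and 2.55, 3.62 and 2.29 with anti-VEGFA. It fell by 1.30 on the log2 scale (adjusted p = 0.0443, and 0.0309 with offsets), was at 11.8, 13.9 and 12.4 in control TAMs, and kept the call in 2 of 6 fits, those without the third OE-MMP28 or the second anti-VEGFA library.

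**Figure D1:**
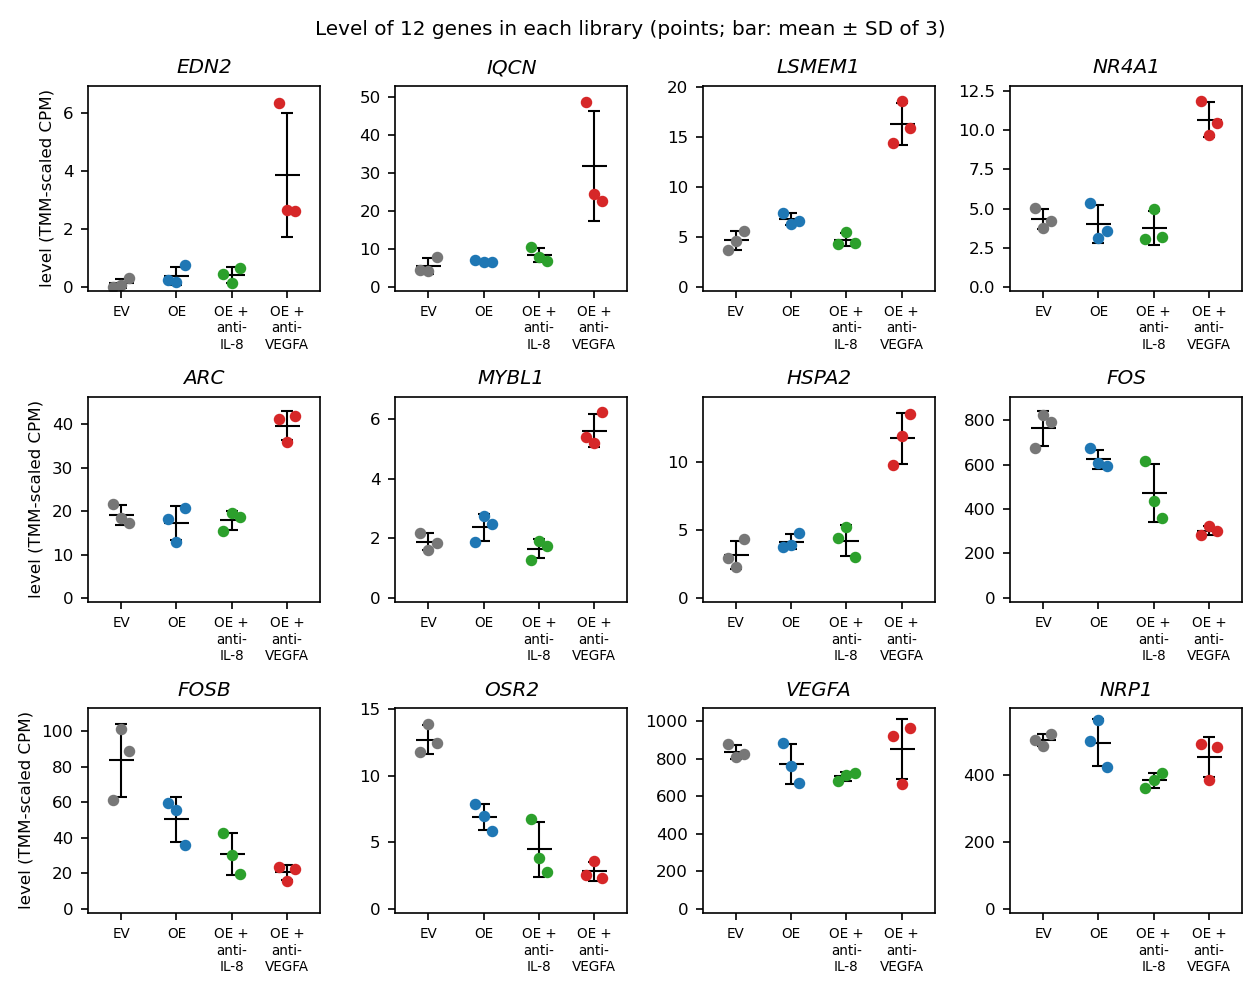
Level of 12 genes in TMM-scaled CPM (vertical axes, each from 0) in control TAMs (EV, empty vector), OE-MMP28 (OE), and the anti-IL-8 and anti-VEGFA groups. Points are libraries and bars the mean ± SD of 3. EDN2, IQCN, LSMEM1, NR4A1, ARC, MYBL1 and HSPA2 are higher in all 3 anti-VEGFA libraries than in the other 9, FOS, FOSB and OSR2 are lower than in all 3 OE-MMP28 libraries, and VEGFA and NRP1 overlap between the 2 groups.

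Among genes that rose, EDN2 had the largest fold change under the naming rule. It encodes endothelin-2, a vasoconstrictor peptide. EDN2 was scarce, with 4, 3 and 12 counts in OE-MMP28 and 107, 42 and 49 counts with anti-VEGFA, or 0.220, 0.175 and 0.749 CPM against 6.36, 2.67 and 2.61 CPM. At these totals 3 counts correspond to 0.160 to 0.189 CPM, so OE-MMP28 was at or little above the floor in 2 of its libraries. The fitted difference was 3.35 ± 0.60 on the log2 scale, a 10.2-fold rise (adjusted p = 0.0228, and 0.043 with offsets), and it ran from 2.80 without the first anti-VEGFA library to 4.23 without the third OE-MMP28 library. The first anti-VEGFA library was the highest by a wide margin, and the call was lost without it (adjusted p = 0.072) and without the first or second OE-MMP28 library (adjusted p = 0.099 and 0.152). Its relative EDN1, encoding endothelin-1, was lower in every anti-VEGFA library (7.96, 7.24 and 8.00 CPM against 12.1, 13.2 and 11.6), a difference of −0.66 that passed the unadjusted threshold only (adjusted p = 0.10). SSTR3, a somatostatin receptor, rose by 1.85 ± 0.35 from 1.21, 0.819 and 1.75 CPM to 6.12, 3.17 and 4.32 (adjusted p = 0.0287, but 0.0598 with offsets, and 0.184 without the second OE-MMP28 library). Of the 13 genes listed as endothelins, somatostatin receptors and their enzymes and ligands, 6 could be tested. Of these, 2 passed the adjusted threshold, both higher, where 0.312% of all tested genes were. The list was chosen with earlier results of these data known, so this share is not separate evidence. SSTR2 differed by 0.38 at an unadjusted p only.

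IQCN, which encodes a protein with calmodulin-binding IQ motifs, had the smallest p of all genes tested. Its level was 7.04, 6.67 and 6.55 CPM in OE-MMP28 and 48.6, 24.5 and 22.6 with anti-VEGFA, a 4.72-fold rise (log2 2.24 ± 0.28, adjusted p = 0.00352). The OE-MMP28 libraries were tightly grouped, whereas the first anti-VEGFA library was far above its 2 neighbours. Control TAMs were at 4.48, 4.27 and 7.93 CPM and anti-IL-8 at 10.4, 7.83 and 6.81. The difference was 1.91 with offsets (adjusted p = 0.004), and the call was kept without each of the 6 libraries in turn and in all 13 alternatives that kept every library. LSMEM1, a small membrane protein gene, rose 2.39-fold, from 7.42, 6.32 and 6.62 CPM to 14.4, 18.5 and 15.8 (log2 1.26 ± 0.18, adjusted p = 0.00567), and 1.42 with offsets. It also kept the call without each of the 6 libraries. Its annotation overlaps IFRD1 on the same strand, which differed by 0.10 (adjusted p = 0.66).

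NR4A1, an immediate early gene encoding an orphan nuclear receptor, went the opposite way from FOS. It was at 5.39, 3.10 and 3.56 CPM in OE-MMP28 and rose to 11.9, 9.71 and 10.4 with anti-VEGFA, 2.65-fold higher (log2 1.41 ± 0.23, adjusted p = 0.0123, and 0.043 with offsets), and its call was lost without the second OE-MMP28 library (adjusted p = 0.085) and the first anti-VEGFA library (0.058). ARC, an immediate early gene best known from neurons, where it acts at synapses, rose from 18.2, 13.0 and 20.8 CPM to 41.3, 35.9 and 42.0 (log2 1.20 ± 0.17, adjusted p = 0.00567). Neither gene's anti-VEGFA libraries overlapped those of any other group. ARC was called in all 6 fits without 1 library and stayed past the threshold with offsets, where its difference was 0.73 (adjusted p = 0.0177). HSPA2, a chaperone of the HSP70 family, rose from 3.74, 3.92 and 4.81 CPM to 9.80, 11.9 and 13.6 (log2 1.51 ± 0.24, adjusted p = 0.0102, and 0.00628 with offsets). MYBL1, a transcription factor of the MYB family, rose from 1.87, 2.75 and 2.50 CPM to 5.41, 5.21 and 6.24 (log2 1.25, adjusted p = 0.0284, and 0.0106 with offsets). HSPA2 lost its call without the first or the second OE-MMP28 library, and MYBL1 without either of these and without the first or the third anti-VEGFA library. Both had lower GC content than the median tested gene and differed a little more with offsets than without.

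The other named protein-coding rises passed the adjusted threshold without offsets and missed it with them. B3GNT7, a glycosyltransferase, rose by 1.56 and kept 1.26 with offsets (adjusted p = 0.0712). C11orf96 rose by 1.44, ATP2A1, the sarcoplasmic calcium pump, by 1.39, SPTBN5, a spectrin, by 1.29, AOC3, an amine oxidase, by 1.26, GPER1, a membrane estrogen receptor, by 1.24 and APC2 by 1.21. SLC9A5, a sodium-proton exchanger, NLGN2, a neuroligin, the collagen genes COL5A3 and COL11A2, and SELPLG, the selectin ligand PSGL-1, rose by 0.97 to 1.01. The offsets lowered APC2 to 0.60 (adjusted p = 0.20) and the collagen genes COL5A3 and COL11A2 to 0.56 each (adjusted p = 0.15 and 0.18). Among the rises past the adjusted threshold under the naming rule, APC2 with 69.2% and C11orf96 with 68.4% had the highest GC content. APC2 and GPER1 were also close to their anti-IL-8 level, with differences from it of 0.18 and 0.20 (adjusted p = 0.72 and 0.71).

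Of the 55 genes, 42 were protein-coding and 13 were not. Among the latter, SNORD3B-1, a U3 small nucleolar RNA with near-identical copies, was at 0.330, 0.117 and 0.125 CPM in OE-MMP28 and 1.01, 1.52 and 1.33 with anti-VEGFA (log2 2.69 ± 0.51, adjusted p = 0.029), and reads of its copies may be split between them. The difference missed the threshold with offsets (adjusted p = 0.0522) and kept its call in 1 of 6 fits without 1 library, the one without the third OE-MMP28 library, and it was 3.33 without the first OE-MMP28 library. AC011481.3 rose by 1.47 (adjusted p = 0.0482, but 0.0712 with offsets), was likewise called only in that 1 of the 6 fits, and overlaps APOE and APOC1, genes with far more reads, on the same strand. AL078604.2, a long intergenic RNA, rose from 3.85, 2.92 and 3.43 CPM to 9.21, 8.13 and 9.28 (log2 1.38 ± 0.20, adjusted p = 0.00601, and 0.004 with offsets) and was called without each of the 6 libraries in turn. Some genes outside the naming rule are given after their values were seen. The 2 lower genes that were not protein-coding, RPL7P1 (−0.80) and RPL7AP6 (−1.34), are processed pseudogenes of the ribosomal protein genes RPL7 and RPL7A, from whose reads theirs may not be separable. RPL7 itself differed by −0.29 and RPL7A by −0.17, neither past the adjusted threshold. IL1RL2, the receptor for IL-36 cytokines, was at 0.110, 0.117 and 0.125 CPM in OE-MMP28 and 1.13, 1.40 and 1.23 with anti-VEGFA (adjusted p = 0.0169, and 0.0177 with offsets). Every OE-MMP28 library was below the 3-count floor, so no fold is given. Of the 55 genes, 32 overlap another gene with counts, and 13 overlap one with more counts than their own.

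The same test across GC content gave a strong trend. The median GC content of the longest transcript was 60.5% for the 50 higher genes, against 48.3% for all tested genes, and 53.1% for the 5 lower ones. At the unadjusted threshold it was 60.0% for higher and 42.0% for lower genes. When tested genes were divided into deciles by GC content, 1.56% of the lowest decile were higher and 15.8% lower with anti-VEGFA at this threshold, with a median log2 difference of −0.18. In the highest decile 42.1% were higher and 0.125% lower, with a median of 0.41. The trend was unequal between libraries. The median log2 deviation of the highest decile minus that of the lowest was −0.24, −0.93 and 0.05 in the OE-MMP28 libraries and 0.30, 0.22 and 0.12 with anti-VEGFA, so that the second OE-MMP28 library stood apart and the third lay next to the anti-VEGFA libraries. Chromosome 19 held 16% of the higher genes and 7.06% of all tested genes.

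Offsets for GC content and length, fitted in each library, left 30 genes (0.187%) past the adjusted threshold, 20 higher (0.125%) and 10 lower (0.0623%). Leaving out OE-MMP28 library 1 or 2 left 4 and 6 genes, anti-VEGFA library 3 left 12, and without anti-VEGFA library 2 there were 98. Of the 55 genes, 16 passed in both fits, 11 higher and 5 lower. The 11 were EDN2, IQCN, HSPA2, NR4A1, LSMEM1, MYBL1, ARC, IL1RL2, AL078604.2, the pseudogene AC091982.2 and the noncoding transcript AC017104.1, and the 5 were FOS, FOSB, OSR2, RPL7P1 and RPL7AP6. All 55 kept their sign and an unadjusted p under 0.05. The median difference of the 50 higher genes was 1.21 without and 0.82 with offsets. A further 14 genes passed only with offsets, 9 higher and 5 lower. DUSP1, a phosphatase that inactivates MAP kinases, was at 277, 225 and 232 CPM in OE-MMP28 and 179, 124 and 168 with anti-VEGFA (log2 −0.64, adjusted p = 0.0645 without, and −0.81, adjusted p = 0.0296 with offsets). NEAT1, the long noncoding RNA of nuclear paraspeckles, was at 401, 366 and 347 CPM against 688, 530 and 637 (log2 0.74, adjusted p = 0.054 without, and 0.79, adjusted p = 0.0282 with offsets). Neither gene's groups overlapped. The mitotic genes, KIF23, a kinesin, and CKS2, a cyclin-dependent kinase subunit, differed by 0.79 and 0.81 with offsets, and GEM, a small GTPase, by 0.59. These 3 were picked after their values were seen. The others were C9, GSTO2, MTFR2, CLK1 and HECTD2, which were higher, and KBTBD11, DDX28, RPS2P46 and AC026310.2, which were lower.

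**Figure D2:**
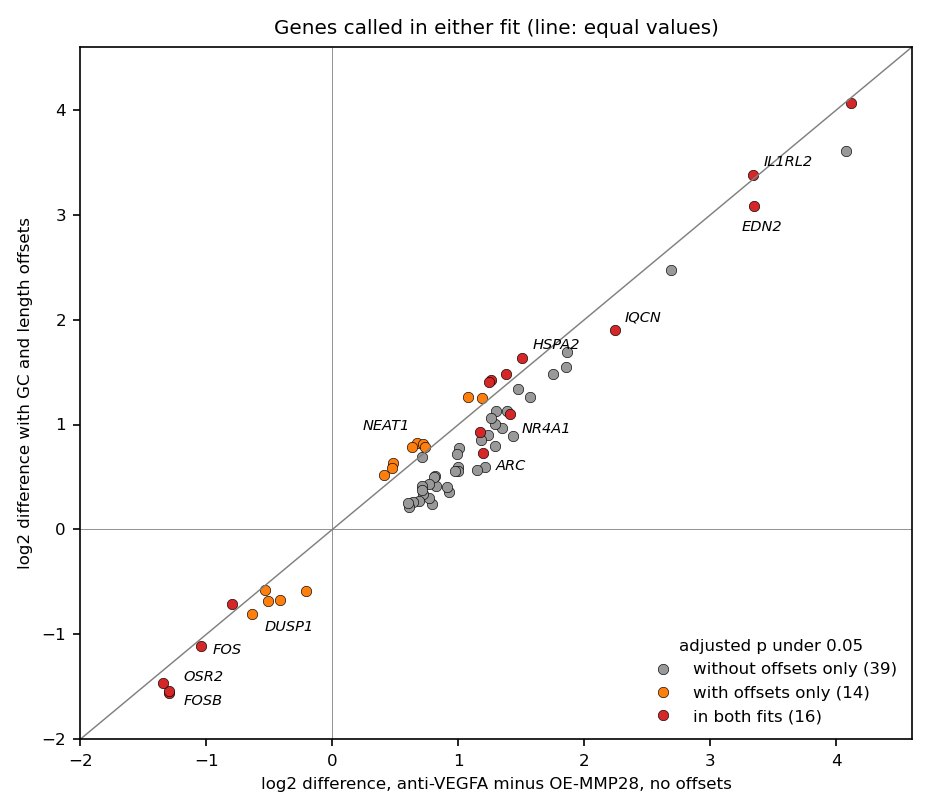
Log2 difference between anti-VEGFA and OE-MMP28 of each gene past an adjusted p of 0.05 in either fit, without (horizontal) and with (vertical) offsets for GC content and length. The line marks equal values. The 39 genes called only without offsets (grey) lie below the line, the 14 called only with offsets (orange) have differences of at most 1.27 with offsets, and 16 genes (red), FOS, FOSB, EDN2 and IQCN among them, are called in both.

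Genes for the VEGF system itself did not pass. Of 10 ligands and receptors, 6 could be tested, and none reached even the unadjusted threshold, their differences lying between −0.14 and 0.35. VEGFA was at 883, 764 and 674 CPM in OE-MMP28 and 923, 668 and 966 with anti-VEGFA, so the groups overlapped (log2 0.14 ± 0.15, adjusted p = 0.63), and it turned to −0.05 with offsets. An antibody against the protein need not change the transcript, so this does not check the labels. The ligand VEGFB differed by 0.35 and VEGFC by 0.01 (adjusted p = 0.31 and 0.98), with VEGFB turning to −0.14 and VEGFC to −0.03 with offsets. Among receptors FLT1 differed by −0.14, NRP1 by −0.13 and NRP2 by 0.21 (adjusted p = 0.54, 0.62 and 0.47). KDR, the main signalling receptor of blood vessels, had at most 13 counts in any library and FLT4 at most 6, under the filter on low counts. Of 19 tested secreted angiogenic factors, 2 (10.5%) were higher and 1 (5.26%) lower at the unadjusted threshold, against 10.4% and 8.44% of all genes. None passed the adjusted one. ADM, the vasodilator adrenomedullin, was at 31.8, 29 and 40.5 CPM against 49.4, 47.0 and 53.7 (log2 0.57, adjusted p = 0.0694).

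The genes listed as immediate early transcription factors, among them some of other function such as ZFP36 and IER3, split. All 26 were tested, and 1 was higher (NR4A1) and 2 lower (FOS and FOSB) at the adjusted threshold. ARC, given above, is not in this list and was also higher at that threshold. These counts are for the list alone. At the unadjusted threshold 9 (34.6%) were higher and 5 (19.2%) lower, where 10.4% and 8.44% of all tested genes were, with a median of 0.13, against −0.00147 over all tested genes. The higher group held IER2 (0.76), IER3 (0.67), IER5 (0.62), JUNB (0.61), JUND (0.56), ZFP36 (0.57), FOSL1 (0.46) and MAFF (0.39) beside NR4A1, and the lower group held KLF4 (−0.62), MYC (−0.50) and KLF6 (−0.44) beside FOS and FOSB. EGR1, a zinc finger member of the class, differed by −0.23, and ATF3 by 0.01. With offsets the counts were 6 higher and 7 lower, against 5.52% and 6.63% of all genes, and JUND, of 69.7% GC, turned to −0.05. The genes of this list outside the naming rule were likewise picked once values were known. Of 18 feedback inhibitors of MAP kinase signalling, none passed the adjusted threshold without offsets, 5 (27.8%) were higher and 3 (16.7%) lower at the unadjusted one, and the phosphatase genes DUSP5 (0.49) and DUSP8 (0.46) differed in the direction opposite to DUSP1. The 28 kinases of the cascade had a median of 0.01, with 8 (28.6%) higher and 6 (21.4%) lower at that threshold, against the same 10.4% and 8.44%, among them MAP2K3 (0.46), MAP3K7 (−0.35) and MAPK12 (0.41, but −0.08 with offsets).

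Interferon-stimulated genes, which include antiviral effectors such as MX1 and the transcription factor IRF7, were mostly higher with anti-VEGFA, but no single gene passed the adjusted threshold. Of 34 tested, 28 were above 0, the median difference was 0.31 (0.32 with offsets), and 7 were higher and none lower at the unadjusted threshold, against 10.4% and 8.44% of all genes. With offsets 12 were higher and none lower, against 5.52% and 6.63%. MX1 was at 33.2, 20.8 and 19.98 CPM in OE-MMP28 and 52.1, 41.0 and 33.8 with anti-VEGFA (log2 0.78 ± 0.20, adjusted p = 0.0874). IRF7 was at 69.7, 45.8 and 80.8 CPM against 95.9, 133 and 82.0 (log2 0.66, and 0.18 with offsets), and IFI6 at 436, 289 and 559 against 622, 595 and 759 (log2 0.62). The list's median log2 deviation from each gene's mean over the OE-MMP28 libraries was 0.31, −0.05 and −0.27 in those libraries. With anti-VEGFA it was 0.53, 0.27 and 0.07, so the groups overlapped. In control TAMs it was 2.90, 3.11 and 2.75, and MX1 was at 387, 444 and 316 CPM there, several times its anti-VEGFA level. Leaving out 1 library moved the list's median difference between 0.16 and 0.57.

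**Figure D3:**
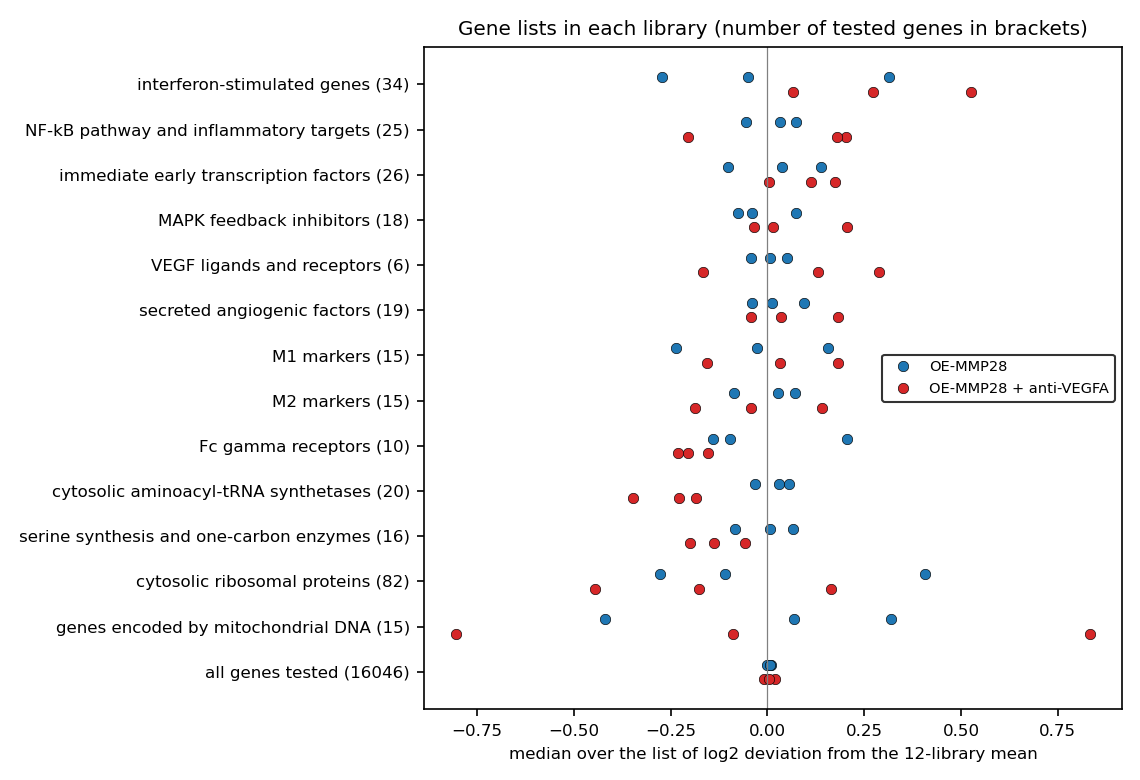
Median log2 deviation over the tested genes of 14 sets, for each OE-MMP28 library (blue) and each anti-VEGFA library (red). Deviations are from each gene's mean over the OE-MMP28 libraries, although the axis title names the 12-library mean. The number of tested genes is given beside each name. Aminoacyl-tRNA synthetases and Fc gamma receptors are lower in every anti-VEGFA library than in every OE-MMP28 library, whereas the interferon, ribosomal protein and mitochondrial sets overlap and spread widely.

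Genes that load amino acids onto tRNA in the cytosol mostly had negative differences. Of 20 cytosolic aminoacyl-tRNA synthetases, 16 had a negative difference and the median was −0.25. None passed the adjusted threshold, but 9 were lower and none higher at the unadjusted one, where 8.44% of all genes were lower, and the counts were equal with offsets, where 6.63% were. EPRS was at 387, 466 and 367 CPM in OE-MMP28 and 304, 286 and 281 with anti-VEGFA (log2 −0.49 ± 0.12, adjusted p = 0.0764), LARS at 277, 352 and 260 against 228, 217 and 203 (log2 −0.46) and GARS at 240, 289 and 263 against 204, 204 and 189 (log2 −0.41). In these 3 genes no anti-VEGFA library reached the lowest OE-MMP28 library. The list's median deviation was −0.03, 0.03 and 0.06 in OE-MMP28, −0.18, −0.23 and −0.35 with anti-VEGFA and −0.23, −0.16 and −0.29 in control TAMs. A further 6 of 16 serine and one-carbon enzymes were lower and none higher at the unadjusted threshold, with a median of −0.20, and 4 were lower with offsets. They included PSAT1 of serine synthesis (192, 214 and 202 CPM against 149, 169 and 134, log2 −0.43, adjusted p = 0.11), MTHFD1L (−0.36) and DLD (−0.47). Of 40 other amino acid enzymes, 5 were lower and none higher, TDO2, the tryptophan dioxygenase, among them at 624, 792 and 635 CPM against 462, 500 and 470 (log2 −0.52, adjusted p = 0.0868), with MAT2B at −0.36 and GOT2 at −0.35. Amino acid transporters had 1 higher and 1 lower of 21, with SLC43A2 at 0.72 and SLC7A2 at −0.41. Targets of ATF4, the transcription factor of the amino acid shortage response, had 3 higher and 5 lower of 24.

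No macrophage polarization marker passed the adjusted threshold. CD86, a costimulatory molecule used as an M1 marker, was at 1.48, 1.99 and 0.687 CPM in OE-MMP28 and 1.37, 0.572 and 0.747 with anti-VEGFA (log2 −0.63 ± 0.45, adjusted p = 0.46). CD163, a haemoglobin scavenger receptor used as an M2 marker, was at 4.01, 3.57 and 4.56 against 4.16, 1.71 and 3.89 (log2 −0.30 ± 0.30, adjusted p = 0.61). Both genes were scarce and their groups overlapped, and neither difference passed a threshold. At the unadjusted threshold, which 10.4% of all genes passed as higher and 8.44% as lower, 2 of 15 tested M1 markers were higher and 1 lower, and of 15 M2 markers none was higher and 1 lower, the scavenger receptor MSR1 at 235, 298 and 215 CPM against 203, 151 and 171 (log2 −0.51, adjusted p = 0.11). The higher M1 markers were SOCS3, a feedback inhibitor of cytokine signalling (38.0, 27.0 and 40.5 CPM against 52.6, 47.3 and 51.4, log2 0.52, and 0.24 with offsets), and IL23A, an IL-23 subunit (35.1, 21.6 and 40.1 against 38.9, 37.4 and 55.4, log2 0.45), with overlap only in IL23A (adjusted p = 0.12 and 0.21). The lower one, the cytokine gene IL1B, at 8662, 8867 and 9450 CPM in OE-MMP28, was below that in all 3 anti-VEGFA libraries, at 7496, 7421 and 7200 (log2 −0.29, adjusted p = 0.25). CXCL8, which encodes IL-8, overlapped (log2 −0.14, adjusted p = 0.69), as did ITGAM, encoding CD11b (−0.01, adjusted p = 0.99). Of 17 chemokines only CCL7 passed the unadjusted threshold (0.48). NF-kB pathway genes and targets had 7 (28%) higher and 1 (4%) lower of 25 and a median of 0.19, which turned to −0.05 with offsets, and BCL3 went from 0.43 to −0.06. Of 10 Fc gamma receptor genes and their signalling chain 9 had a negative difference and 2 passed the unadjusted threshold, FCGR2A (−0.31) and FCGR2B (−0.37). Of 19 macrophage identity genes 1 was higher and 2 were lower.

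No gene of the metabolic and stress lists passed the adjusted threshold. HSPA2, given above, did pass it but is not in the heat shock chaperone list. At the unadjusted threshold, which 10.4% of all genes passed as higher and 8.44% as lower, there were 4 higher and 3 lower of 31 glycolysis genes, 2 and 2 of 27 hypoxia genes, 2 and 3 of 27 cholesterol genes, 6 and 5 of 31 fatty acid genes, 3 and 1 of 16 heat shock chaperones, 1 and 2 of 22 genes of the unfolded protein response, 2 and 5 of 29 lysosomal genes, 1 and 2 of 38 cell cycle genes, 2 and 1 of 18 NRF2 targets and 2 and 2 of 18 metalloproteinases and inhibitors. The shares of fatty acid genes (19.4% higher and 16.1% lower), of lower lysosomal genes (17.2%) and of higher heat shock chaperones (18.8%) were above those of all genes. Members with the smallest p included HK3, a hexokinase (0.99), ACACB, an acetyl-CoA carboxylase (0.88), LPL, lipoprotein lipase (−0.47), HSPD1, a mitochondrial chaperone (−0.34), ATF6, a sensor of the unfolded protein response (−0.54), RRM1, a ribonucleotide reductase subunit (−0.48), and MMP25, a membrane-bound metalloproteinase (1.66, from 0.275, 0.292 and 0.499 CPM to 1.72, 0.825 and 0.853). Of 11 nuclear-retained and noncoding RNAs, 4 were higher and 1 lower at the unadjusted threshold, led by NEAT1, and SNHG12 differed by 0.69 and KCNQ1OT1 by 0.98. Of 82 ribosomal protein genes 15 were lower and none higher, with a median of −0.17, but the list's median deviation ran from −0.28 to 0.41 in OE-MMP28 and from −0.45 to 0.17 with anti-VEGFA. Genes encoded by mitochondrial DNA had none past either threshold, with library medians from −0.80 to 0.83 with anti-VEGFA. MT-CO1 differed by 0.23, and by −0.22 without the second anti-VEGFA library. MHC class II genes had 1 higher and 1 lower of 10.

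The libraries had 15852346 to 18701195 counts, and 22529 to 25769 genes had at least 1 count. Mitochondrial genes took 6.92% of the first anti-VEGFA library and 17.8% of the second, with the other 10 between. MMP28 had 0 counts in all 12 libraries, which does not bear on its overexpression, since that was in AsPC-1. Most listed macrophage markers were abundant, with 11260 to 28850 counts of CD14 and 6266 to 10445 of ITGAM per library. PTPRC had 499 to 1104 counts and LYZ only 76 to 182. CD68, a usual macrophage marker, had at most 5. Summed epithelial marker levels were 7.602 to 12.9 CPM in OE-MMP28 and 13.3 to 14.1 with anti-VEGFA, against 3877 to 5232 and 4189 to 4612 CPM for macrophage markers. EPCAM had 0 counts in every library and KRT8, KRT18 and KRT19 at most 7, and the 4 epithelial genes that could be tested were all higher, with a median of 0.47 (0.11 with offsets). Summed lymphocyte marker levels were 1.49 to 2.22 CPM with anti-VEGFA and at most 1.18 in the other 9 libraries, OE-MMP28 included. Most of the sum was CD79A (8 to 32 counts per library, log2 1.11, adjusted p = 0.15), and CD3E and CD3D were at 0 counts in every library. Fibroblast marker levels overlapped, at 1.87 to 2.64 and 1.97 to 3.03 CPM. The part of these markers in the results was not tested, and in bulk RNA more cells of a type and more RNA per cell cannot be told apart.

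The anti-VEGFA libraries were also set against the anti-IL-8 libraries, a comparison between 2 antibody-treated cocultures. It shares the anti-VEGFA libraries with the comparison above, so the values stand side by side and are not separate evidence. Here 32 genes (0.199%) passed the adjusted threshold, 31 higher (0.193%) and 1 lower (0.00623%) with anti-VEGFA, while 1507 (9.39%) were higher and 902 (5.62%) lower at the unadjusted one. All 3 anti-VEGFA libraries were above all 3 anti-IL-8 libraries for 1808 tested genes (11.3%) and below them for 1547 (9.64%). EDN2 was higher than with anti-IL-8 by 3.25 (adjusted p = 0.0247), IQCN by 1.93 (adjusted p = 0.004), LSMEM1 by 1.78 (adjusted p = 0.000272), MYBL1 by 1.77 (adjusted p = 0.004), NR4A1 by 1.504 (adjusted p = 0.00752), HSPA2 by 1.48 (adjusted p = 0.0109) and ARC by 1.15 (adjusted p = 0.00422). For these 7 genes, all 3 anti-VEGFA libraries lay above all 3 anti-IL-8 libraries, as they did above OE-MMP28. FOSB and OSR2, by contrast, differed by −0.59 and −0.67 from anti-IL-8 (adjusted p = 0.30 and 0.27), with overlapping libraries. The trend with GC content had another shape here, with a median of 0.21 in the lowest decile and −0.05 in the highest, and with offsets 159 genes passed. Without the first or the third anti-IL-8 library the 32 became 3 and 5, without the third anti-VEGFA library 10 and without the second 51, and without the second or the third OE-MMP28 library, which are not in this comparison, 112 and 97.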

How the data were processed

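RNA of THP-1 derived TAMs was sequenced in 12 libraries, 3 per group, grouped by their labels alone. Per the submitters' processing notes the authors used HISAT2 2.0.5 and featureCounts 1.5.0-p3, with the NEBNext Ultra RNA kit, and whether counting used strand is not given in the sources used here. The deposited counts are whole reads per gene for 58735 genes, whose coordinates match GENCODE 29 (GRCh38). The authors also deposited FPKM values, used only in alternatives, and columns of their own comparisons (fold changes and p-values), which were not used. Counts were analysed in R 4.3.3 with edgeR 4.0.16: filterByExpr with the 4 groups kept 16046 genes, libraries were scaled by TMM, and a quasi-likelihood fit of all 12 libraries with 1 coefficient per group gave each comparison, with Benjamini-Hochberg adjustment over all genes tested. The study names limma and an unadjusted p under 0.05, which was counted as well. Log2 differences use a prior count of 0.125, and the SE comes from the same fit. GC content was that of the longest GENCODE 29 transcript, and offsets for GC content and length were natural splines with 5 degrees of freedom per library.

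Genes and the 33 gene lists were chosen with earlier results of these data known. The naming rule took protein-coding genes past the adjusted threshold whose higher group averaged 50 or more counts (every fall and the 20 largest rises), the 3 largest non-coding changes with at least 20 counts, up to 3 tested members of each list with the smallest p, and the tested VEGF ligands, receptors and genes the study names. A gene that the rule also took is not reported here. Other genes are given as picked after their values were seen. Library deviations for lists are medians over the list of log2(CPM + 0.5) minus each gene's mean over the OE-MMP28 libraries. Library totals were 15852346 to 18701195 counts, where 3 counts are 0.160 to 0.189 CPM, which covers counting error only. Alternatives were DESeq2 1.42.0, limma 3.58.1 (voom, and log2 of FPKM plus 1 or 0.1), library totals or DESeq2 size factors, other filters, a 2-group fit, a replicate block, and each library left out. The fits with GC and length offsets, and those without a library of the other groups, were added later, with values known. The code was tested on simulated data with known changes. Figures were drawn in Python 3.11.15 with matplotlib 3.10.9.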

Additional observations from a re-analysis of the deposited data

Results flagged for a closer look

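The change with anti-VEGFA and that with anti-IL-8, both against OE-MMP28, differed past the adjusted threshold in 9 named genes (quasi-likelihood test in edgeR). Over all tested genes 0.199% passed. OE-MMP28 cancels in this difference, so the test is that of anti-VEGFA against anti-IL-8 given above. Most of the 9 genes were named for their rise with anti-VEGFA. The same anti-VEGFA libraries enter this test, so these values are not separate evidence. On the log2 scale the anti-VEGFA change exceeded the anti-IL-8 change by 3.25 for EDN2, 1.93 for IQCN, 1.78 for LSMEM1, 1.77 for MYBL1, 1.51 for AL078604.2, 1.504 for NR4A1, 1.48 for HSPA2, 1.15 for ARC and 0.99 for NEAT1. In NEAT1 the anti-IL-8 libraries were at 304, 377 and 257 CPM and the anti-VEGFA libraries at 688, 530 and 637. Groups of 3 are too small to test single libraries as outliers.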

How the results depend on the processing

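Of 55 genes past the adjusted threshold between anti-VEGFA and OE-MMP28, the count became 429 with DESeq2, 400 with no filter on low counts, 1 in a fit of the 2 groups alone, 30 with GC and length offsets and 18 with offsets and the replicate block. Leaving out 1 library gave 8 to 1402, the highest without the third OE-MMP28 library. The unadjusted count of 3019 became 1690 in the fit of 2 groups, 1950 with offsets and 1982 with offsets and block, and 1805 to 4471 without 1 library. Against anti-IL-8 the 32 genes became 252 with DESeq2, 277 with no filter, 57 with at least 10 counts in every library, 60 among protein-coding genes, 17 in the fit of 2 groups, 53 with log2(FPKM + 1), 159 with offsets and 97 with offsets and block, and 3 to 112 without 1 library. With offsets, leaving out 1 library took the 30 genes to 4, 6, 12, 21, 42 and 98. The cause of these shifts was not tested. The replicate block gave 37 genes. Deviations of same-numbered OE-MMP28 and anti-VEGFA libraries correlated at 0.24, −0.16 and −0.06. These values do not show a pairing by replicate number, but deviations centred within groups of 3 cannot exclude it.

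No difference that turned sign was called in the main fit or after the turn. Not all were small in the main fit. There MUC1 (0.59), SPI1 (0.46), BCL3 (0.43) and MAPK12 (0.41) passed the unadjusted threshold. ITGAM was 0.015 with library totals, 0.0069 with at least 10 counts and −0.21 to 0.13 without 1 library. VEGFC was −0.0064 with no filter, −0.0030 and −0.0036 with FPKM, −0.030 with offsets, −0.032 with offsets and block and −0.13 to 0.081 without 1 library. With offsets, and with offsets and block, VEGFB was −0.14 and −0.14, MAPK12 −0.076 and −0.080, BCL3 −0.063 and −0.066, MUC1 −0.027 and −0.031 and VEGFA −0.046 and −0.048, and SPI1 was −0.0036 with both. Without 1 library MT-ND4L ran from −0.52 to 0.105, MT-CO1 from −0.22 to 0.51 and MT-ATP6 from −0.31 to 0.53, the extremes without the first or second anti-VEGFA library. Of the other named-gene values, 2698 kept sign and side of the threshold, 205 lost the threshold and 81 gained it. At this depth 3 counts are 0.160 to 0.189 CPM, which limits EDN2, IL1RL2 and SNORD3B-1.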
